A study of Homo sapiens with 12 samples.

Results

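The NRF2 antioxidant system is described here through its transcription factor, the inhibitor of that factor and 7 genes the factor is known to switch on. The genes were taken by symbol: NFE2L2 (which encodes NRF2), KEAP1, GCLC, GCLM, HMOX1, NQO1, TXNRD1, SRXN1 and OSGIN1. Of these 9 genes, 8 were matched to a row of the count table and all 8 passed the filter on low counts, among 15284 genes tested and 62069 gene rows in the table. SRXN1 was not analysed here.

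NRF2 is a transcription factor that KEAP1 holds in the cytoplasm and hands to the proteasome. Oxidants and electrophiles modify KEAP1, so that newly made NRF2 escapes, enters the nucleus, pairs with a small MAF protein and binds antioxidant response elements near genes for glutathione synthesis, thioredoxin reduction, quinone reduction and heme breakdown. Much of this control acts on the NRF2 protein, which RNA counts do not measure.

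IMR90 ER:RAS cells are human fetal lung fibroblasts, a widely used cell line, that carry RAS fused to an estrogen receptor domain, which 4-hydroxytamoxifen (4OHT) switches on, leading to oncogene-induced senescence (OIS). Each of 4 groups had 3 libraries. In the group called vector the cells were transduced with a control vector and not induced. The group called vector/4OHT had the same vector and 100 nM 4OHT. In the remaining groups, shXPO7_3/4OHT and shXPO7_5/4OHT, the cells were induced likewise and expressed a short hairpin RNA against XPO7, a nuclear transport receptor. The cells of every group were at passage 13, were grown for 7 days with a change of medium on day 4, and are listed at day 5 of induction. No group had a hairpin without 4OHT, and every group rests on the same engineered population. The labels tell replicates apart by the letters T, A, B and C and do not say whether these were separate cultures, so the p-values reflect only how far these libraries differ, and part of that could be technical.

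The libraries held between 28534141 and 60397769 counts. XPO7 fell by 2.30 on the log2 scale with shXPO7_3 and by 1.39 with shXPO7_5 (edgeR's quasi-likelihood test, adjusted p = 1.24e-08 and 3.27e-06). HRAS RNA was at a mean of 986 CPM in vector and was 0.97 higher (log2) in vector/4OHT (edgeR's quasi-likelihood test, adjusted p = 8.71e-06). The fusion that 4OHT switches on is a protein, whose activity RNA counts do not measure. Levels are in CPM, a gene's share of the mapped counts on a fixed library size, scaled by the trimmed mean of M-values. The 8 fibroblast markers were present in all 12 libraries, with a summed level of 24016 to 27880 CPM in vector, 16696 to 18154 in vector/4OHT, 17395 to 21343 in shXPO7_3/4OHT and 18984 to 21791 in shXPO7_5/4OHT. The summed levels of 5 markers each, in the same order of groups, were 6.24 to 6.86, 1.72 to 2.10, 1.98 to 2.14 and 2.11 to 2.35 CPM for epithelial cells and 14.6 to 15.0, 9.39 to 10.2, 10.7 to 11.99 and 8.94 to 9.94 CPM for endothelial cells. For haematopoietic cells they were 0.364 to 0.623, 0.815 to 1.13, 0.755 to 1.10 and 0.846 to 1.26 CPM. KRT5, PECAM1, CDH5 and CD3E, defining genes of epithelial, endothelial and T cells, were at 0 in all 12 under the identifiers used. Other markers of the same lists were detected in all 12, namely EPCAM, CDH1, CLDN4, VWF, TEK, KDR and CSF1R. The remaining markers ESRP1, PTPRC, SPI1 and CD14 were at 0 in some libraries. The part of these marker differences in the results was not tested. In such bulk samples, fewer cells of a type and less RNA per cell cannot be told apart. The 3 libraries shXPO7_3/4OHT replicate T, shXPO7_5/4OHT replicate T and shXPO7_5/4OHT replicate B stood apart from the rest. In them, the log ratio of a gene to its vector/4OHT mean rose with the GC content of its transcript, with a Spearman rho across genes of 0.575, 0.611 and 0.787. Across the other 6 induced libraries rho lay between -0.344 and 0.317.

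The sequences directly upstream of the 4 genes that differed between vector/4OHT and vector are shown because NRF2 acts through antioxidant response elements. Such an element may also lie farther from a start site than the letters shown. They come from RefSeq (GRCh38.p14), give the 250 bases before the annotated start 5′ to 3′ on the strand of the gene, and are in lower case with the element core in capitals. The core was searched on both strands as TGACNNNGC and TGAGNNNGC. These 2 motifs cannot match at the same place on a strand.
GCLM, chr1:93909431-93909680, minus strand: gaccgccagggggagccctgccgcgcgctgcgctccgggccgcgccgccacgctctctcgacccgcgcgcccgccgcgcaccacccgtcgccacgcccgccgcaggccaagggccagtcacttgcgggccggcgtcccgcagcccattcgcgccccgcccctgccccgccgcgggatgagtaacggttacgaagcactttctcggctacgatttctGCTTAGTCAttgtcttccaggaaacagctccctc
GCLC, chr6:53545102-53545351, minus strand: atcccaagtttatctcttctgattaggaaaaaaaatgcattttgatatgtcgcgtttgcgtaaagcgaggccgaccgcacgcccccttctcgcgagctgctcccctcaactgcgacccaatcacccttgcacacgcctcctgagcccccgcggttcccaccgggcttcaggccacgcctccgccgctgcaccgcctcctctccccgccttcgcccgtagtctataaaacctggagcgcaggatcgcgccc
TXNRD1, upstream start, chr12:104215529-104215778, plus strand: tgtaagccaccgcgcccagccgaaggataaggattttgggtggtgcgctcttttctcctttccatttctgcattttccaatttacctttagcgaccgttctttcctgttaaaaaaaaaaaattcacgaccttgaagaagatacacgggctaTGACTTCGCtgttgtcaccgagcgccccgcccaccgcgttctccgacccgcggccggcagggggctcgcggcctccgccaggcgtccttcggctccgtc
TXNRD1, downstream start, chr12:104286782-104287031, plus strand: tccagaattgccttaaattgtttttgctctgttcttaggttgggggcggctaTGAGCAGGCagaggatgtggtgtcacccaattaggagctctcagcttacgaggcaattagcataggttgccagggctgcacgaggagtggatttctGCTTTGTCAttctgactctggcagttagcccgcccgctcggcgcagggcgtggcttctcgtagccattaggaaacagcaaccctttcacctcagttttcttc
OSGIN1, chr16:83952990-83953239, plus strand: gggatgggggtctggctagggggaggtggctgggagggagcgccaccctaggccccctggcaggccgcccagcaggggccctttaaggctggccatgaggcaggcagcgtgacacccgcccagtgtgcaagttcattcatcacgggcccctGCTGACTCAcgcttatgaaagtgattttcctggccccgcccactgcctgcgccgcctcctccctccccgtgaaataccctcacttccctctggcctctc

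In GCLM the core TGACTAAGC lay on the opposite strand, its window position beginning 34 bases upstream of the start. In TXNRD1 the upstream start had TGACTTCGC 99 bases upstream, and the downstream start had TGAGCAGGC 198 bases upstream and TGACAAAGC, on the opposite strand, 102 bases upstream. OSGIN1 had TGAGTCAGC on the opposite strand, 99 bases upstream. GCLM and the upstream TXNRD1 start each had another core beginning 8 bases upstream that runs past the printed stretch and is left in lower case. No core was found in these letters upstream of GCLC, and bases farther upstream were not searched. Over windows that also take in 50 bases after the start, 8 of the 9 genes had an entry, HMOX1 being without one, and 6 of the 8 held a core in at least 1 window. Some genes had more than 1 window, and by window 7 of 11 held a core. Of all 35116 windows of that length, 29.1% held either core, 13.3% held TGACNNNGC and 18.3% held TGAGNNNGC. The 9 genes were chosen as part of the NRF2 system, and the difference from all windows was not tested. A match is a description of the letters and no binding was measured.

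Levels are given as CPM and, where genes are compared with each other, as RPKM, which divides CPM by exon length in kilobases. In vector/4OHT the highest of the 8 genes per length was TXNRD1, which encodes cytosolic thioredoxin reductase, at 169 ± 5.64 RPKM (SD, n = 3), followed by the quinone reductase gene NQO1 at 125 ± 5.58 RPKM (SD, n = 3). NFE2L2 itself was at 25.8 ± 2.07, KEAP1 at 17.5 ± 0.559 and the heme oxygenase gene HMOX1 at 14.5 ± 0.135 RPKM (SD, n = 3). The glutamate cysteine ligase genes, GCLC for the catalytic and GCLM for the modifier subunit, were lower, at 9.19 ± 0.156 and 7.37 ± 0.318 RPKM (SD, n = 3). OSGIN1, which encodes a growth inhibitor induced by oxidative stress, was the lowest of the 8 at 3.26 ± 0.333 RPKM (SD, n = 3). In the smallest library value OSGIN1 still rested on 308 counts and TXNRD1 on 23809.

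**Figure D1:**
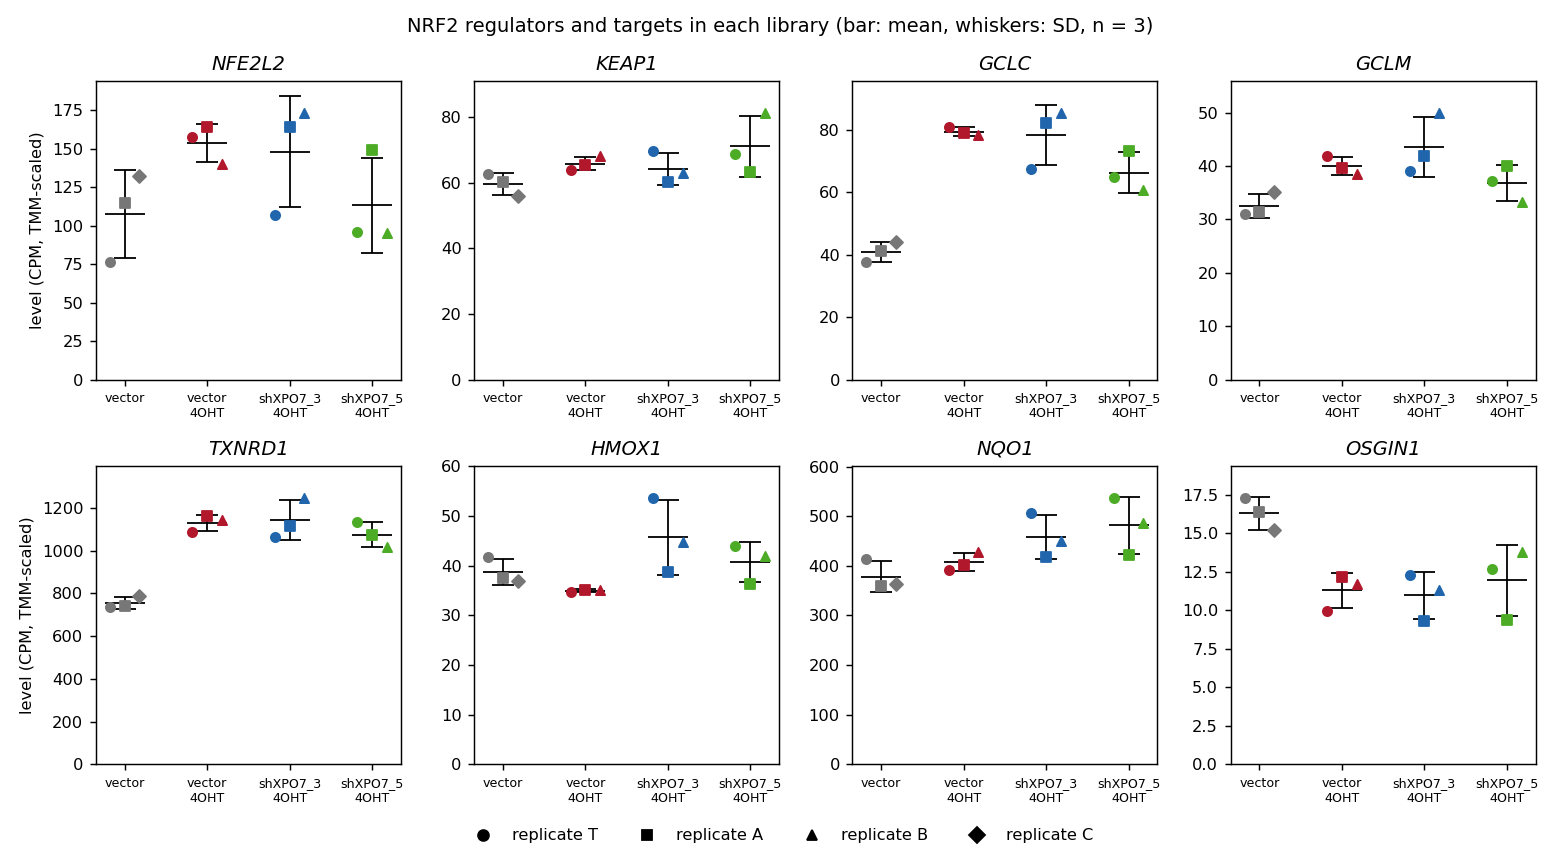
Level of each of the 8 genes in CPM (vertical axes from 0) in the 12 libraries, by group (horizontal axes), with symbols for the replicate letter, a bar for the mean and whiskers for the SD (n = 3). GCLC and TXNRD1 are higher, and OSGIN1 is lower, in all 9 libraries treated with 4OHT than in the 3 vector libraries.

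The comparison of vector/4OHT with vector asks how these genes differed after 4OHT without a knockdown. No group had 4OHT without the RAS fusion, so RAS activity and 4OHT itself cannot be told apart. GCLC, TXNRD1 and GCLM rose, OSGIN1 fell, and NFE2L2, KEAP1, HMOX1 and NQO1 did not pass the test. Thus 4 of 8 genes passed, 3 higher and 1 lower, where 50.9% of all genes tested passed, 24.8% higher and 26.1% lower. That share is close to the background. The libraries of the groups did not overlap for 5 genes that were higher in vector/4OHT and 2 that were lower, beside 31.8% and 31.4% of all genes. None of the 8 changed by 1 or more on the log2 scale, a size that 16.8% of all genes reached with the test passed. The median log2 fold change of the 8 genes was 0.22, beside -0.0068 for all genes. Higher genes made up 48.8% of all calls here and 38.3% with upper-quartile scaling, which moved the median of all genes to -0.11, and GCLM did not pass with that scaling (edgeR's quasi-likelihood test, adjusted p = 0.091).

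Among the regulators, NFE2L2 was at 76.2, 115 and 132 CPM in vector replicates T, A and C and at 157, 164 and 140.2 CPM in vector/4OHT replicates T, A and B. All 3 induced libraries were above all 3 vector libraries, but the vector libraries were widely spread. The log2 fold change was 0.51 (SE 0.232, 95% interval 0.0096 to 1.02) and did not pass (edgeR's quasi-likelihood test, adjusted p = 0.0825). Within the vector group the order of NFE2L2 followed the GC trend. The log ratio to the group mean had a rho with GC of 0.587 in replicate T, where NFE2L2 was lowest, and -0.644 in replicate C, where it was highest. With an offset for GC content and length the NFE2L2 value was 0.47 and passed (edgeR's quasi-likelihood test, adjusted p = 0.0229). It passed under 7 of 15 alternative settings.

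KEAP1, the adaptor that brings NRF2 to its ubiquitin ligase, was at 62.7, 60.2 and 56.1 CPM in vector and at 63.9, 65.5 and 68.1 CPM in vector/4OHT. The groups did not overlap, but they were separated by little more than 1 CPM. KEAP1 had a log2 fold change of 0.14 (SE 0.0953), which did not pass (edgeR's quasi-likelihood test, adjusted p = 0.235). It was 0.27 and passed with the offset for GC content and length (edgeR's quasi-likelihood test, adjusted p = 3.23e-05), and passed under 2 of 15 settings in all.

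Of the glutathione genes, GCLC was at 37.7, 41.0 and 44.0 CPM in vector and at 80.9, 79.0 and 78.3 CPM in vector/4OHT. Every induced library lay well above every vector library. The rise was 0.96 on the log2 scale (SE 0.102, 95% interval 0.735 to 1.18), or 1.94-fold, with an adjusted p of 7.62e-06 (edgeR's quasi-likelihood test). GCLM was at 31.0, 31.5 and 35.1 CPM in vector and at 41.8, 39.7 and 38.4 CPM in vector/4OHT. The groups did not overlap here either, with a gap of a few CPM. The log2 fold change was 0.30 (SE 0.103, edgeR's quasi-likelihood test, adjusted p = 0.0295), and this call was lost without vector replicate T, without vector replicate A, or with any 1 of the vector/4OHT libraries left out (edgeR's quasi-likelihood test, adjusted p as high as 0.108). It was also lost with an offset for GC content and length, at 0.20 (edgeR's quasi-likelihood test, adjusted p = 0.06). The 2 subunits of the same enzyme thus rose by different amounts, and the difference between them was not tested.

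TXNRD1 was at 736, 739.9 and 786 CPM in vector and at 1088, 1161 and 1143 CPM in vector/4OHT. The lowest induced library was far above the highest vector library. TXNRD1 rose by 0.59 on the log2 scale (SE 0.0701, 95% interval 0.433 to 0.738, edgeR's quasi-likelihood test, adjusted p = 2.04e-05). GCLC, TXNRD1 and OSGIN1 kept their direction and passed under all 15 alternative settings.

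OSGIN1 was at 17.3, 16.4 and 15.2 CPM in vector and at 9.97, 12.2 and 11.7 CPM in vector/4OHT. All 3 induced libraries were below all 3 vector libraries. It fell by 0.53 on the log2 scale (SE 0.145, 95% interval -0.847 to -0.214, edgeR's quasi-likelihood test, adjusted p = 0.00881). HMOX1 was at 41.7, 37.5 and 37.0 CPM in vector and at 34.6, 35.2 and 35.2 CPM in vector/4OHT. The groups did not overlap, with vector/4OHT lower by a small margin. The log2 fold change of -0.15 (SE 0.113) did not pass (edgeR's quasi-likelihood test, adjusted p = 0.301), nor did it under any of 15 alternatives. NQO1 was at 414, 358 and 362 CPM in vector and at 392, 402 and 427 CPM in vector/4OHT, overlapping groups with a log2 fold change of 0.11 (SE 0.0982, edgeR's quasi-likelihood test, adjusted p = 0.39). For single genes an exact two-sided permutation test of 3 against 3 libraries cannot go below p = 0.1.

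**Figure D2:**
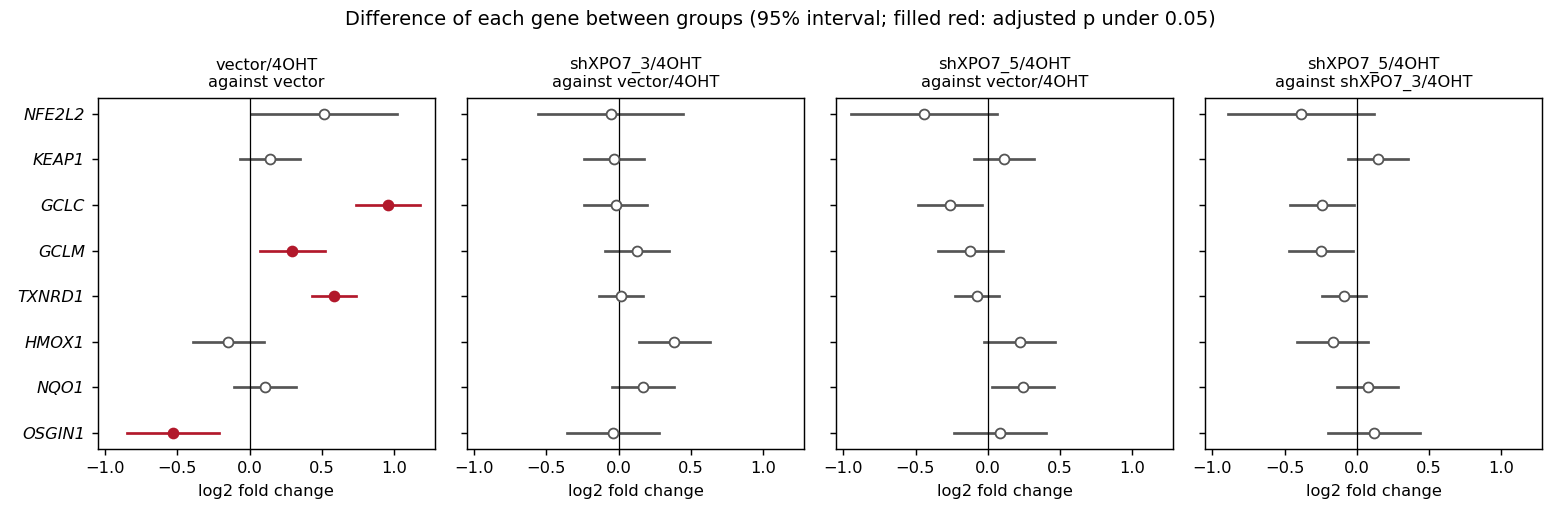
Log2 fold change (horizontal axes) of the 8 genes (rows) in the 4 comparisons, with lines for the 95% interval and filled red points for genes that passed edgeR's quasi-likelihood test. GCLC (0.96), TXNRD1 (0.59), GCLM (0.30) and OSGIN1 (-0.53) passed in vector/4OHT against vector, and no gene passed in the other 3 comparisons.

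A wider list of 126 genes of the same chemistry, without the 9 above, put these values in context. Of its genes 119 were tested, and in vector/4OHT against vector 27 were higher and 40 lower, 56.3% of those tested beside the 50.9% of all genes. The median log2 fold change of the list was -0.08.

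Genes that partner or control NRF2 had 4 higher and 2 lower of 14, or 42.9%, beside 50.9% of all genes. The small MAF genes MAFF and MAFK, whose proteins pair with NRF2 on DNA, rose by 1.39 and 0.85 on the log2 scale (edgeR's quasi-likelihood test, adjusted p = 1.8e-07 and 5.12e-05). MAFF went from 37.7 ± 2.78 to 99.1 ± 3.34 CPM (SD, n = 3). BTRC, which encodes the adaptor of another ubiquitin ligase that degrades NRF2, rose by 0.83 (edgeR's quasi-likelihood test, adjusted p = 4.3e-07).

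Glutathione genes were split, with 10 higher and 11 lower of 35, or 60%, beside 50.9% of all genes. SLC7A11, the cystine carrier that feeds cysteine into glutathione synthesis, was at 73.2, 101 and 135 CPM in vector and at 250.4, 248 and 203 CPM in vector/4OHT. The groups were apart, and vector replicate T was lowest as it was for NFE2L2. The log2 fold change was 1.18 (SE 0.25, edgeR's quasi-likelihood test, adjusted p = 0.00173). By contrast GPX4, the glutathione peroxidase for lipid hydroperoxides, fell by 0.93 and the conjugate exporter gene ABCC3 fell by 2.48 on the log2 scale (edgeR's quasi-likelihood test, adjusted p = 2.96e-05 and 9.81e-08). ABCC3 went from 24.1 ± 2.32 to 4.32 ± 0.374 CPM (SD, n = 3).

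Of 16 thioredoxin and peroxiredoxin genes 2 were higher and 3 lower, or 31.2%, beside 50.9% of all genes. The 3 lower were TXNRD3 (-0.96), MSRB2 (-0.64) and MSRB3 (-0.56), which encode another thioredoxin reductase and 2 methionine sulfoxide reductases (edgeR's quasi-likelihood test, adjusted p = 9.99e-06, 0.000147 and 0.000145). TXNRD1 and its relative TXNRD3 therefore moved in opposite directions. Of the 4 superoxide dismutase and catalase genes 3 were lower, or 75%. Among them were cytosolic SOD1 (-0.36, adjusted p = 0.000583 with edgeR) and mitochondrial SOD2 (-0.23, adjusted p = 0.0438 with edgeR), the latter passing in 6 of 15 alternatives. The largest fall of these was that of SOD3 (-2.91), a gene at a low level. Of 9 genes for NADPH supply 1 was higher and 2 were lower, or 33.3%. Mitochondrial MTHFD2 (0.62) was higher and NNT (-0.71) was among the lower, with adjusted p of 1.5e-05 and 4.34e-06 by edgeR's quasi-likelihood test.

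Quinone, carbonyl and xenobiotic reductases had 3 higher and 7 lower of 19, or 52.6%, beside 50.9% of all genes. AKR1B10 rose by 0.61, while the aldo-keto reductase gene AKR1C1 fell by 0.95 and the carbonyl reductase gene CBR3 fell by 1.11 on the log2 scale (edgeR's quasi-likelihood test, adjusted p = 0.00333, 1.29e-05 and 0.000446). The AKR1 genes have close relatives, so their counts are uncertain where reads could be shared. Around HMOX1, the 7 heme and ferritin genes had 1 higher and 5 lower, or 85.7%. BLVRB, a biliverdin reductase gene, fell by 0.99, and the ferritin genes FTH1 and FTL fell by 0.67 and 0.64 (edgeR's quasi-likelihood test, adjusted p = 1.04e-05, 0.000193 and 3e-04). FTH1, the ferritin heavy chain gene, went from 2117 ± 209 to 1333 ± 27.4 CPM (SD, n = 3), and both ferritin genes have many processed copies in the genome that could take reads.

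The remaining 15 targets had 6 higher and 7 lower, or 86.7%, beside 50.9% of all genes. OSGIN2, the relative of OSGIN1, was at 15.9, 19.2 and 22.8 CPM in vector and at 61.1, 61.4 and 58.2 CPM in vector/4OHT. All induced libraries were far above the vector libraries. It rose by 1.64 on the log2 scale (SE 0.159, edgeR's quasi-likelihood test, adjusted p = 3.38e-06), whereas OSGIN1 fell. PIR and the heme carrier gene SLC48A1 fell by 0.56 and 0.53 (edgeR's quasi-likelihood test, adjusted p = 8e-05 and 0.00068). TXNIP, the thioredoxin inhibitor gene, had no counts under the identifier used and was among the 7 genes not tested.

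**Figure D3:**
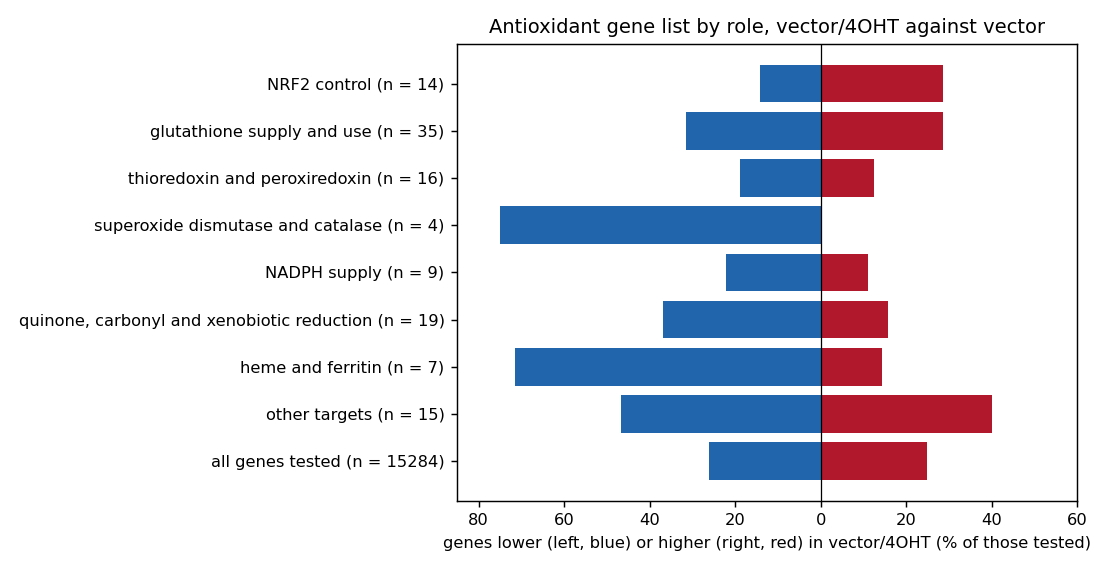
Share of tested genes (horizontal axis, in percent) that were lower (left, blue) or higher (right, red) in vector/4OHT than in vector, for each role of the wider list and for all 15284 genes (rows, with the number tested). Lower genes outnumber higher ones for every role but NRF2 control, as for superoxide dismutase and catalase (3 to 0) and for heme and ferritin (5 to 1). NRF2 control has 4 higher and 2 lower of 14. Of all genes 24.8% were higher and 26.1% lower.

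The knockdown comparisons ask whether the induced levels depended on XPO7. They share the vector/4OHT libraries, so their values are given side by side. With shXPO7_3, 0 of 8 genes passed edgeR's quasi-likelihood test, where 0.124% of all genes did. DESeq2 also called 0 of the 8, and 1 of 8 had an unadjusted p under 0.05 in edgeR, as did 6.41% of all genes. That gene, HMOX1, was also the only 1 of the 8 whose libraries did not overlap those of vector/4OHT, which held in the same direction for 7.46% of all genes. With shXPO7_5, 0 of 8 passed edgeR's test, where 0.589% of all genes did, DESeq2 called 0, and 2 of 8 had an unadjusted p under 0.05 in edgeR, as did 21.6% of all genes. HMOX1 was above vector/4OHT without overlap and GCLC below it, as were 14.2% and 12.6% of all genes. A p that misses the threshold does not show equal levels, and the intervals below give the sizes that remain possible.

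GCLC had the largest rise among the 8 in vector/4OHT against vector. It was at 67.3, 82.2 and 85.4 CPM with shXPO7_3 (replicates T, A and B in turn) and at 64.8, 73.4 and 60.7 CPM with shXPO7_5 (same letters). All 6 were above the vector libraries, and the shXPO7_5 libraries were all below those of vector/4OHT. Against vector/4OHT the log2 fold change was -0.02 (95% interval -0.24 to 0.199) with shXPO7_3 and -0.26 (95% interval -0.482 to -0.0412) with shXPO7_5, the latter with an unadjusted p of 0.0238 and an adjusted p of 0.201 in edgeR. The second glutathione gene GCLM was at 39.1, 41.9 and 49.9 CPM with shXPO7_3 and at 37.2, 40.0 and 33.2 CPM with shXPO7_5. Both groups overlapped vector/4OHT. The log2 fold changes were 0.13 (95% interval -0.0954 to 0.35) and -0.12 (95% interval -0.343 to 0.104).

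TXNRD1 was at 1064, 1118 and 1249 CPM with shXPO7_3 and at 1136, 1072 and 1017 CPM with shXPO7_5. Both groups overlapped vector/4OHT and lay far above vector. The log2 fold changes were 0.02 (95% interval -0.136 to 0.168) and -0.07 (95% interval -0.225 to 0.0793), the narrowest intervals of the 8 genes in those comparisons. OSGIN1 was at 12.3, 9.30 and 11.3 CPM and at 12.7, 9.36 and 13.8 CPM, again overlapping vector/4OHT and below all vector libraries. Its log2 fold changes were -0.04 (95% interval -0.357 to 0.279) and 0.08 (95% interval -0.236 to 0.403).

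HMOX1 was at 53.7, 38.7 and 44.8 CPM with shXPO7_3 and at 44.0, 36.4 and 41.9 CPM with shXPO7_5. All 6 knockdown libraries were above the 3 vector/4OHT libraries, which spanned less than 1 CPM. With shXPO7_3 the log2 fold change was 0.39 (SE 0.113, 95% interval 0.14 to 0.633), with an unadjusted p of 0.00508 and an adjusted p of 0.348 in edgeR. With the offset for GC content and length it was 0.35 and passed (edgeR's quasi-likelihood test, adjusted p = 0.0177), while over the 16 alternatives the adjusted p ran from 0.0126 to 0.872 and 2 passed. With shXPO7_5 it was 0.22 (95% interval -0.0261 to 0.467, adjusted p = 0.254 in edgeR), and -0.01 with that offset.

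NQO1 was at 505, 417 and 449 CPM with shXPO7_3 and at 537, 422 and 486 CPM with shXPO7_5. The T libraries were the highest of both groups, and each group overlapped vector/4OHT in its A library. The log2 fold changes were 0.17 (95% interval -0.0459 to 0.382) and 0.24 (95% interval 0.0293 to 0.457), the latter with an unadjusted p of 0.0291 and an adjusted p of 0.209 in edgeR. With the offset for GC content and length the shXPO7_5 value was 0.24 (edgeR's quasi-likelihood test, adjusted p = 0.0944). Without the 3 libraries of the GC trend it was 0.05, which for shXPO7_5 rests on replicate A alone.

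NFE2L2 was at 107, 164 and 173 CPM with shXPO7_3 and at 96.1, 149 and 95.1 CPM with shXPO7_5. The shXPO7_3 T library and the shXPO7_5 T and B libraries lay within the range of vector, and the other 3 were within or above the range of vector/4OHT. The log2 fold changes were -0.06 (95% interval -0.559 to 0.447) and -0.44 (95% interval -0.946 to 0.0637), the widest intervals of the 8 genes. With that offset the shXPO7_5 value was -0.31 (edgeR's quasi-likelihood test, adjusted p = 0.296). Without the 3 libraries it was -0.05, which for shXPO7_5 rests on replicate A alone. KEAP1 was at 69.7, 60.3 and 62.8 CPM and at 68.8, 63.1 and 81.2 CPM, overlapping vector/4OHT, with log2 fold changes of -0.03 (95% interval -0.242 to 0.173) and 0.11 (95% interval -0.0977 to 0.318).

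Leaving out shXPO7_5/4OHT replicate A, the library of that group without the GC trend, 3 of the 8 genes passed with shXPO7_5, alongside 3634 of all genes (23%). They were NFE2L2 (-0.69), GCLC (-0.34) and NQO1 (0.33), with adjusted p of 0.0489, 0.0427 and 0.0382 by edgeR's quasi-likelihood test. Over the 16 alternatives the log2 fold change lay between -0.69 and -0.05 for NFE2L2, between -0.34 and -0.11 for GCLC and between 0.05 and 0.33 for NQO1, and for GCLC it was -0.13 with the offset (edgeR's quasi-likelihood test, adjusted p = 0.139). In the direct comparison of the hairpins 0 of 8 passed edgeR's test, where 0.0131% of all genes did. DESeq2 called 0, and 2 had an unadjusted p under 0.05 in edgeR, as did 11.9% of all genes. These were GCLC (-0.24, 95% interval -0.461 to -0.0207) and GCLM (-0.25, 95% interval -0.47 to -0.0234), both lower with shXPO7_5 (adjusted p = 0.388 for each in edgeR).

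In the wider list with shXPO7_3, 0 of 119 genes passed edgeR's test and DESeq2 called 0. In edgeR 10 had an unadjusted p under 0.05, beside 6.41% of all genes. With shXPO7_5, 3 were higher and 1 lower (3.36% beside 0.589% of all genes). They were CHAC1 (0.55), a glutathione-degrading enzyme gene, SOD3 (0.89), PANX2 (0.64) and ALDH3A2 (-0.61), a fatty aldehyde dehydrogenase gene, with adjusted p values of 0.0451, 0.0216, 0.0483 and 0.0285 by edgeR's quasi-likelihood test. SOD3 and PANX2 were named after their values were seen, and SOD3 was at only 2.15 ± 0.226 CPM (SD, n = 3) in shXPO7_5/4OHT. In vector/4OHT against vector SOD3 had fallen by 2.91, from 8.74 to 1.18 CPM, and PANX2 by 0.83, from 4.45 to 2.49 CPM (edgeR's quasi-likelihood test, adjusted p = 3.82e-09 and 0.000134). None of these 4 passed in the fit of only the 2 groups compared, where 0.069% of all genes did. Of 16 alternative settings CHAC1 passed in 8, SOD3 in 9, PANX2 in 6 and ALDH3A2 in 9. Between the hairpins 0 of the list passed edgeR's test and 0 were called by DESeq2. In edgeR 17 had an unadjusted p under 0.05, beside 11.9% of all genes.

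The levels of 5 of the 8 genes did not overlap between the 3 libraries of the GC trend and the other 6 induced libraries, and 45% of all genes were likewise separated. NFE2L2 lay between 95.1 and 107 CPM in the 3 and between 140.2 and 173 CPM in the 6. GCLC lay between 60.7 and 67.3 CPM in the 3 and between 73.4 and 85.4 CPM in the 6. Both were lower in the 3.

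NQO1 went the other way, between 486 and 537 CPM in the 3 and between 392 and 449 CPM in the 6. KEAP1 (68.8 to 81.2 against 60.3 to 68.1 CPM) and OSGIN1 (12.3 to 13.8 against 9.30 to 12.2 CPM) were also higher in the 3. GCLM, TXNRD1 and HMOX1 overlapped between the sets.

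By transcript GC content, KEAP1 (61.3%) and OSGIN1 (61.9%) were above the median of 48.8% over all genes and NFE2L2 (43.4%) and GCLC (43.9%) were below it. NQO1, at 47.1%, was close to the median. Of the genes that overlapped, GCLM (40.4%) had the lowest GC content of the 8, TXNRD1 was at 45.1% and HMOX1 at 60.2%. Over all genes the shXPO7_5 log2 fold change had a rho with GC content of 0.693, beside 0.114 for shXPO7_3 and -0.134 for OIS. The fit without the 3 libraries leaves shXPO7_5 with 1 library assumed to vary like the others, so only effect sizes are given for it. With shXPO7_3, 0 of 8 genes passed in that fit, beside 0.0859% of all genes. The share of this trend in each knockdown value was not tested beyond the offset for GC content and length and the fit without those libraries.

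**Figure D4:**
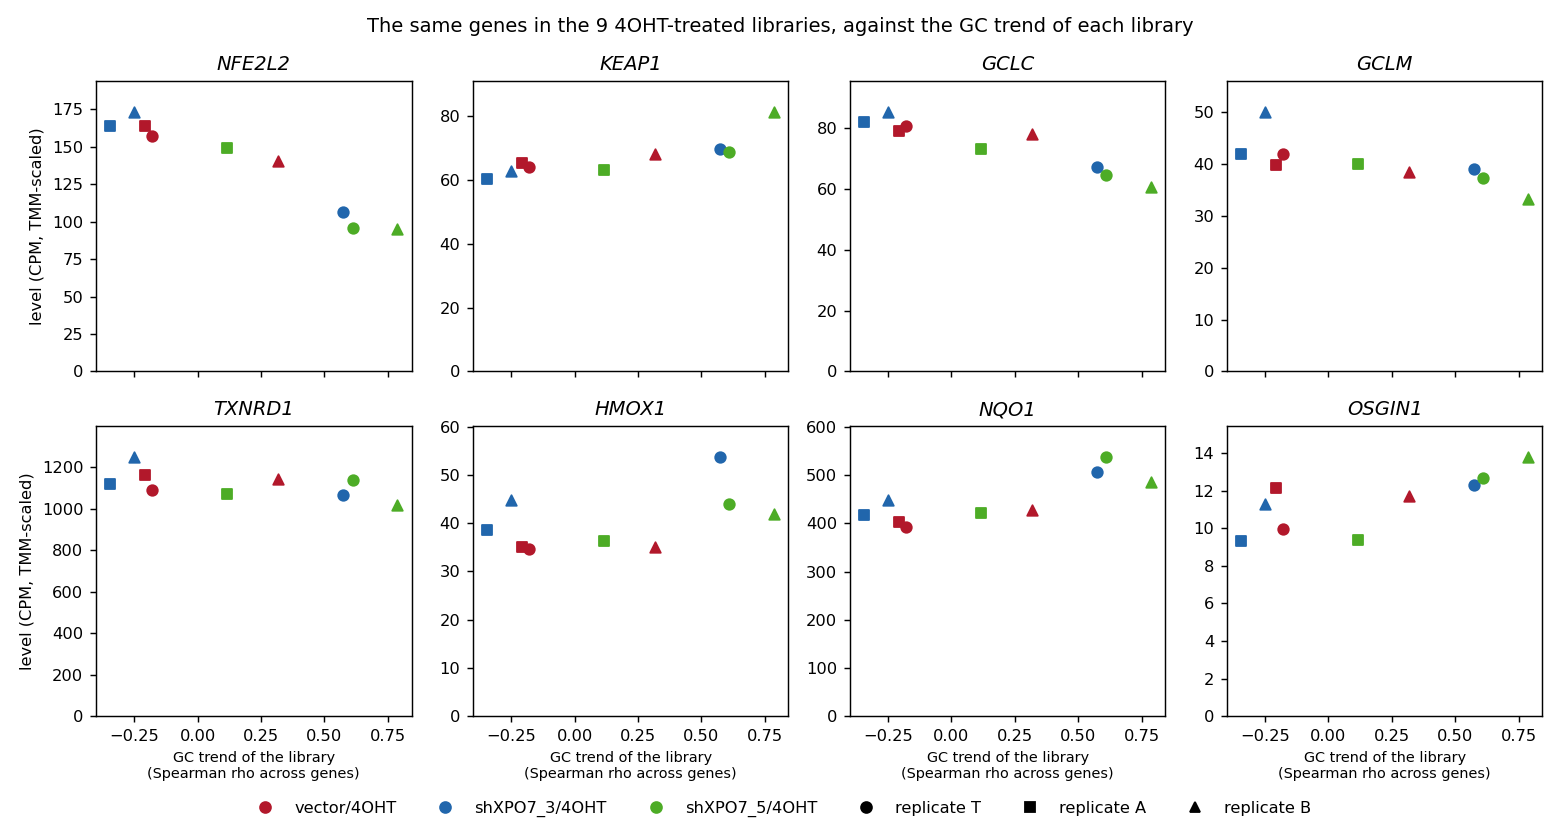
Level of each of the 8 genes in CPM (vertical axes from 0) in the 9 libraries treated with 4OHT, against the Spearman rho of the library between transcript GC content and the log ratio to the vector/4OHT mean (horizontal axes). The 3 libraries with a rho of 0.575 or more lie below the other 6 for NFE2L2 and GCLC and above them for KEAP1, NQO1 and OSGIN1.

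Over the 12 libraries the patterns of the 8 genes fell together only in part. As a description across libraries that share groups and the GC trend, Pearson's r of log2 CPM was 0.965 for GCLC and TXNRD1, 0.865 for GCLC and GCLM, 0.719 for HMOX1 and NQO1 and -0.895 for GCLC and OSGIN1. NFE2L2 had an r of 0.79 with GCLM and -0.355 with NQO1. Among 10561 other genes whose log2 CPM averaged 2 or more, the most like NFE2L2 were USP15 and AHI1 (r = 0.997 each), and the most like GCLC were RGS17 (0.998) and NDFIP2 (0.997). For TXNRD1 these were FLT1 (0.983) and WDR12 (0.982), for GCLM PTPRG (0.953) and NAP1L5 (0.944), and for KEAP1 BSG and TMED9 (0.984 each). For NQO1 they were TTI2 (0.973) and PHF8 (0.97), for OSGIN1 WDR6 (0.967) and ST6GALNAC6 (0.965), and for HMOX1 SOCS3 (0.896) and SLC6A6 (0.879), the lowest likeness of the 8.

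In the order of group means, the step from vector to the lowest induced group was clear of overlap for GCLC and TXNRD1 alone among the rising genes, and that from the highest induced group to vector for OSGIN1. For HMOX1 the order was vector/4OHT, vector, shXPO7_5/4OHT and shXPO7_3/4OHT, and of its neighbours vector/4OHT and vector did not overlap. All other neighbouring groups of the 8 genes overlapped in their libraries. By exon position NFE2L2 shares 1054 bases (17.6% of its exon length) with AC019080.1 on the same strand, which held 173 counts over all libraries, and 54 bases (0.9%) with AGPS on the other strand, which held 28719. NQO1 shares 575 bases (17.7%) with AC092115.2 on the other strand (96 counts), and OSGIN1 shares 481 bases (13.9%) with AC009119.2 on the same strand (31 counts). GCLC shares 529 bases (6.1%) with AL033397.1 on the same strand (100 counts), and reads in these stretches may have been split or left out in counting. Whether counting used strand is not given in the sources used here, although the libraries were stranded.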

How the data were processed

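RNA was measured by stranded mRNA sequencing in 12 libraries, 3 in each of 4 groups taken from the labels. The authors deposited 1 table of raw read counts per Ensembl gene. Per the labels' processing notes it came from CASAVA 1.8.4, TopHat2 2.0.11 and featureCounts 1.18.0 with the build GRCh37 (hg19). The strand setting is not given in the sources used here. Of its rows 62069 were genes and 92 were ERCC spike-ins, which held no counts and were left out. Symbols came from GENCODE identifiers (GRCh38) for 49517 genes with 99.49% of the counts. SRXN1 could not be matched that way.

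Differences were tested with edgeR 4.0.16 in R 4.3.3 (filterByExpr, trimmed mean of M-values, glmQLFit and glmQLFTest on all 12 libraries) with Benjamini-Hochberg adjustment over 15284 genes and a threshold of 0.05. This is called passing. SE and the 95% interval come from the F statistic. The alternatives were other scalings and filters, DESeq2 1.42.0, a replicate block, an offset for GC content and length (splines with 5 degrees of freedom, transcripts of GRCh38, 97.3% of genes), 2 groups only and leaving out each library in turn. The fit without 3 libraries was chosen after seeing the data. The procedures were tested on simulated data. RPKM used GRCh38 exon lengths, not those of the authors' build.

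The 9 genes and the wider list were chosen with earlier results of these data known. From the wider list, up to 3 genes for each role and comparison are named, those with the largest absolute log2 fold change among genes that passed and had a mean log2 CPM of 2 or more, and for each of the 8 genes the 2 with the highest Pearson's r. Replicates differed by more than sampling noise (chi-square per gene between 4.27 and 56.2), so none was counted as a copy.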

Additional observations from a re-analysis of the deposited data

How the results depend on the processing

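In vector/4OHT against vector, 104 of 120 values of the 8 genes kept direction and call under the alternatives, 7 lost the call, 9 gained it and none reversed. Requiring an absolute log2 fold change of at least 1 left 0 of the 8 genes and 12 of the wider list, beside 16.8% of all genes. With shXPO7_3, the offset for GC content and length gave 1 of the 8 genes and 4 of the list, and 1 and 6 with the replicate block added. Of all genes 2.6% passed with the offset and 3.2% with the block added. With shXPO7_5, that offset gave 7 of the list, and with the block 2 of the 8 genes (KEAP1 and NQO1) and 11 of the list. The share of all genes was 3.36% with the offset, 6.67% with the block added and 0.438% with upper-quartile factors. The list count was 2 with upper-quartile factors and 0 with an absolute log2 fold change of at least 1. It was also 0 in the fit of 2 groups, where 0.069% of all genes passed. Leaving out 1 library moved the counts with shXPO7_5 between 0 and 3 of the 8 genes and between 0 and 35 of the list, the highest being without replicate A of that group. Without that replicate 23% of all genes passed. Between the hairpins the offset with the block gave 1 of the 8 genes (HMOX1), beside 0.445% of all genes.

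Values of genes that did not pass changed sign as follows, and the cause was not tested. With shXPO7_3, leaving out 1 library gave log2 fold changes from -0.19 to 0.13 for NFE2L2, -0.10 to 0.0091 for KEAP1, -0.090 to 0.071 for GCLC, -0.054 to 0.060 for TXNRD1 and -0.13 to 0.063 for OSGIN1. Without the 3 libraries NFE2L2 was at 0.13 and GCLC at 0.078. With shXPO7_5 the offset gave -0.14 for KEAP1, 0.15 for GCLM, -0.0092 for HMOX1 and -0.17 for OSGIN1, and with the block -0.14 for KEAP1, which then passed (edgeR's quasi-likelihood test, adjusted p = 0.0396), 0.15 for GCLM, -0.011 for HMOX1 and -0.17 for OSGIN1. OSGIN1 ran from -0.034 to 0.23 with 1 library left out. Without the 3 libraries, which left replicate A alone in the shXPO7_5 group here and below, KEAP1 was at -0.059, GCLM at 0.0025 and OSGIN1 at -0.27. Between the hairpins KEAP1 was at -0.078 and OSGIN1 at -0.11 with the offset and with the block added. NQO1 ran from -0.0090 to 0.16 with 1 library left out, and without the 3 libraries NQO1 was at -0.037 and OSGIN1 at -0.14.

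The labels do not explain the replicate letters, and the letters were not taken as pairs. The correlation of deviations from the group means lay between -0.234 and 0.589 for same-letter pairs, 8 of 15 being over 0.1. As the block, the letters took the count in vector/4OHT against vector from 4 to 5 of the 8 genes, NFE2L2 passing at 0.74 (edgeR's quasi-likelihood test, adjusted p = 0.00636), and changed no call of the 8 genes in the knockdown comparisons. Of all genes 52.3% passed with the block in vector/4OHT against vector. With the offset and the block, GCLM was at 0.14 in vector/4OHT against vector (edgeR's quasi-likelihood test, adjusted p = 0.0491).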
